A study of Mus musculus with 10 samples.

Results

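The class I antigen presentation genes and Nlrc5 were measured by RNA-seq in mouse osteocytes. They were 10 genes, chosen by symbol from the 22548 genes of the table: Nlrc5, H2-K1, H2-D1, B2m, Tap1, Tap2, Tapbp, Psmb8, Psmb9 and Erap1. Osteocytes are the cells embedded in bone matrix, and here they were released from femur pieces by repeated digestion with collagenase and EDTA. The MM group was 5 C57BL/6 mice (mice 6 to 10) whose femurs had been injected with Vk12598, a myeloma line derived from Vk*MYC mice, and the No MM group was 5 C57BL/6 mice (mice 1 to 5) that received no myeloma cells. The labels give every mouse as male and 8 weeks old, and femurs were examined at week 6. A single mouse gave each library, a single myeloma line was used, and the host mice kept their own immune cells.

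Class I molecules carry peptides from inside the cell to its surface, where CD8 T cells read them. Proteasomes cut proteins to peptides, TAP moves the peptides into the endoplasmic reticulum, ERAP1 trims them, and tapasin helps to load them onto a heavy chain paired with β2-microglobulin. NLRC5 is a transactivator of class I genes and a relative of CIITA, which does the same for class II genes. Nearly all nucleated cells express class I genes, immune cells at high levels, and interferons induce the whole pathway.

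The NLRC5 complex reaches class I promoters through a short module made of W/S, X1, X2 and Y boxes. The promoters of the 3 genes that make the class I dimer are shown because this module is where the regulator and its targets meet. They are the 250 bases before the RefSeq start site (GRCm38.p6), 5′ to 3′, at chr2:122147437-122147686 (plus strand) for B2m, chr17:34000348-34000597 (minus strand) for H2-K1 and chr17:35262844-35263093 (plus strand) for H2-D1. Capitals mark TGACG (the core of the X2 box) with ATTGG (the Y box) 10 to 30 bases away. They also mark GGGGATTCC (a kappa B site) and GAAANNGAA (a form of the interferon response core).
B2m: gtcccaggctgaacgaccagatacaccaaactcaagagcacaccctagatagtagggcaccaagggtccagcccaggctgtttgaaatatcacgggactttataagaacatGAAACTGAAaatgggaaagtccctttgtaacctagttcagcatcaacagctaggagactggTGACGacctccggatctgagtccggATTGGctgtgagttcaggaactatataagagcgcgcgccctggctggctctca
H2-K1: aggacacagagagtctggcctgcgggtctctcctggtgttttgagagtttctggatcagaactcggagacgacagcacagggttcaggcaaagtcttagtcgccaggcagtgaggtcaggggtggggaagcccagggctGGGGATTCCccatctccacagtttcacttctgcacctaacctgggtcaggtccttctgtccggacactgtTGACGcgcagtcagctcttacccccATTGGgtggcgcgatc
H2-D1: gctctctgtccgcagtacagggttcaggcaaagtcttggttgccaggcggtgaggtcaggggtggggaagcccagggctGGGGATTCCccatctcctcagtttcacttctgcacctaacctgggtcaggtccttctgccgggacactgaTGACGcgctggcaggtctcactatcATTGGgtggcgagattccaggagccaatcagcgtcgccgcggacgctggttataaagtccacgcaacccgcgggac

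In all 3 sequences, TGACG stood upstream of ATTGG in the same orientation, at positions -78 to -49 from the start in B2m, -41 to -12 in H2-K1 and -101 to -72 in H2-D1. Both strands of 32851 promoters of this length were searched. TGACG and ATTGG stood 10 to 30 bases apart, in either order and any orientation, in 2.20% of them. Promoters were matched for 8 of the 10 genes, and in the promoters of Tap1, Tapbp, Psmb8, Psmb9 and Erap1 this pair was not found within the 250 bases. GGGGATTCC occurred in H2-K1 and H2-D1 and in 0.213% of all promoters. GAAANNGAA occurred in B2m and Erap1 and in 7.13% of all promoters. Other forms of the interferon response core were not searched. Promoters without GAAANNGAA, such as those of H2-K1 and H2-D1, can therefore not be said to lack an interferon response site. These matches describe letters and not binding.

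Between 31099174 and 39466332 reads were counted per library, and each of the 10 genes had at least 627 reads in every library. Levels are given as CPM (counts scaled to library size after TMM scaling). A pair of control libraries, labelled No MM 3 and No MM 4, stood apart. Immunoglobulin genes took 26.8% and 29.3% of their reads, against 0.648% to 3.98% in the other 8. The summed level of 10 plasma cell markers was 11390.1 to 11861 CPM in these libraries, 768 to 1479 CPM in No MM 1, 2 and 5, and 926 to 1539 CPM in MM. Osteocyte markers were present in every library, with Dmp1 at 112 CPM or more. Their summed level was 549 to 677 CPM in No MM 3 and No MM 4, 1054 to 2818 CPM in the other No MM libraries and 652 to 2083 CPM in MM. Whether this pair carries the right label is in doubt and was not tested, so each No MM mean and fold change is given with and without it where it matters. Against the labels, 7 libraries (No MM 1 to 4 and MM 6 to 8) held 951 or more reads of Xist, the RNA of the inactive X chromosome, and 0 to 47 reads of 4 Y-linked genes. The other 3 (No MM 5, MM 9 and MM 10) held 14 to 225 Xist reads and 5157 or more Y-linked reads. In bulk libraries, fewer cells of a type and less RNA per cell cannot be told apart.

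The 10 genes differed widely in level. Compared per length, as the mean over 10 libraries in CPM per kilobase, B2m stood highest with 3111, followed by H2-D1 with 1127 and H2-K1 with 1026. The immunoproteasome subunit Psmb8 reached 132 and tapasin (Tapbp) 83.5 CPM per kilobase. Tap2 with 37.5, Tap1 with 35.9 and Psmb9 with 35.1 CPM per kilobase lay close together, above Erap1 with 21.2 and Nlrc5 with 9.21. The regulator was thus the least abundant of the set in its mean, although it exceeded Erap1 in 1 of the 10 libraries. B2m was above H2-D1, H2-K1 above Psmb8, Psmb8 above Tapbp, Tapbp above Tap2, and Psmb9 above Erap1 in all 10 libraries. H2-D1 was above H2-K1 in 8 libraries, while Tap2 exceeded Tap1, and Tap1 exceeded Psmb9, in 6 of 10, so those neighbours did not keep their order from mouse to mouse.

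Nlrc5 (ENSMUSG00000074151, chr8:94434356-94527272, plus strand, GRCm38) had 23.9, 35.8, 90.2, 71.5 and 56.0 CPM in No MM 1 to 5. In MM 6 to 10 it had 78.1, 117, 78.4, 44.0 and 44.2 CPM. The highest library was MM 7 and the lowest No MM 1, and the groups overlapped. The No MM mean was 55.5 ± 26.7 CPM (SD, n = 5), and the MM mean 72.4 ± 30.4 CPM (SD, n = 5). MM over No MM, the log2 fold change came to 0.38 (standard error 0.38, 95% confidence interval -0.45 to 1.22), with an adjusted p of 0.654 in edgeR's quasi-likelihood test with Benjamini-Hochberg adjustment. With No MM 3 and No MM 4 left out, the No MM mean was 38.5 ± 16.2 CPM (SD, n = 3). The log2 fold change was then 0.89 (standard error 0.38, 95% confidence interval 0.03 to 1.76), with an unadjusted edgeR p of 0.0440 and an adjusted p of 0.643. Nlrc5 was the 1 of the 10 genes with an unadjusted p under 0.05 in these 8 libraries, where 2.51% of the 16600 genes tested were as far on the higher side and 3.37% on the lower side. With Y-linked reads as a further term, its log2 fold change in the same 8 libraries was 0.83 and its unadjusted edgeR p was 0.0742.

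The heavy chains and their partner were the most abundant messages of the set. H2-K1 (ENSMUSG00000061232, chr17:33996017-34000347, minus strand), the K heavy chain, had 1576, 1121, 5327, 3814 and 879.7 CPM in No MM 1 to 5, and 1445, 2004, 1487, 805 and 774 CPM in MM 6 to 10. H2-D1 (ENSMUSG00000073411, chr17:35262730-35267499, plus strand), the D heavy chain, had 2652, 1718, 5239, 3941 and 1433 CPM in No MM, and 1746, 2529, 1970.4, 1219 and 1232 CPM in MM. B2m (ENSMUSG00000060802, chr2:122147686-122153083, plus strand), the light chain, had 2915, 1698, 6298, 5759 and 1350.2 CPM in No MM, and 1644, 2642, 1987, 1279 and 1182 CPM in MM. For all 3 genes No MM 3 was highest and No MM 4 second, and the other 3 No MM libraries lay within the range of MM or, for H2-D1 and B2m in No MM 1, just above it. MM 9 and MM 10 held the 2 lowest values of each.

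The log2 fold change of H2-K1 was -0.97 (standard error 0.53, adjusted p = 0.426 in edgeR), that of H2-D1 -0.78 (standard error 0.41, adjusted p = 0.403) and that of B2m -1.04 (standard error 0.48, adjusted p = 0.357). Leaving out No MM 3 and No MM 4 gave values of 0.10, -0.18 and -0.21, with 95% confidence intervals of -0.74 to 0.95, -0.95 to 0.59 and -1.04 to 0.62. On the CPM scale H2-K1 averaged 2543 ± 1942 (SD, n = 5) over the No MM mice, 1303 ± 518 (SD, n = 5) over the MM mice and 1192 ± 353 (SD, n = 3) over No MM 1, 2 and 5. The B2m means were 3604 ± 2296 (SD, n = 5), 1747 ± 593 (SD, n = 5) and 1988 ± 821 (SD, n = 3) CPM in the same order. Among all 76-base stretches of their annotated transcripts, 2.96% in H2-K1 and 5.40% in H2-D1 also occurred in another gene, chiefly the class I genes H2-Q10 and H2-Q1. B2m shared none.

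The TAP transporter is a dimer of TAP1 and TAP2, and tapasin bridges it to the waiting class I molecule. Tap1 (ENSMUSG00000037321, chr17:34187553-34197225, plus strand) had 129, 90.9, 237, 228 and 85.3 CPM in No MM 1 to 5 and 90.3, 229, 139, 93.9 and 80.3 CPM in MM 6 to 10. Here MM 7 lay between No MM 3 and No MM 4. Tap2 (ENSMUSG00000024339, chr17:34203527-34216321, plus strand) had 96.5, 80.5, 291, 266 and 80.9 CPM in No MM and 83.4, 128, 102, 81.8 and 80.9 CPM in MM. Outside No MM 3 and No MM 4, Tap2 kept within 80.5 to 128 CPM. Tapbp (ENSMUSG00000024308, chr17:33915899-33929292, plus strand) had 289, 185, 495, 449 and 145 CPM in No MM and 163, 249, 182, 134 and 125 CPM in MM.

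The log2 fold changes were -0.28 for Tap1 (standard error 0.38, adjusted p = 0.752 in edgeR), -0.78 for Tap2 (standard error 0.40, adjusted p = 0.397) and -0.87 for Tapbp (standard error 0.35, unadjusted p = 0.0310, adjusted p = 0.325). In the 8 libraries without that pair they were 0.29, 0.12 and -0.30, with 95% confidence intervals of -0.51 to 1.09, -0.30 to 0.55 and -0.96 to 0.36. The signs of both TAP subunits turned, and that of tapasin did not. Of the 76-base stretches, 8.14% in Tap2 and 18.4% in Tapbp also occurred in another gene, chiefly Gm15821 and Gm19412 on the opposite strand. Tap1 and Psmb9 overlap on opposite strands and shared 2.38% and 3.41% of their stretches with each other. The kit keeps the strand, but how strand was used in counting is not given in the sources used here.

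Psmb8 and Psmb9 encode catalytic subunits that replace those of the standard proteasome in the immunoproteasome, and both lie beside the Tap genes. Psmb8 (ENSMUSG00000024338, chr17:34197721-34201454, plus strand) had 278, 168, 615, 495 and 134 CPM in No MM 1 to 5 and 129, 259, 215, 111 and 117 CPM in MM 6 to 10. Psmb9 (ENSMUSG00000096727, chr17:34181987-34187764, minus strand) had 111, 69.2, 202, 179 and 57.9 CPM in No MM and 59.2, 138, 87.7, 57.3 and 52.7 CPM in MM. Erap1 (ENSMUSG00000021583, chr13:74639568-74693201, plus strand), the trimming peptidase, had 56.0, 53.4, 213, 199.6 and 52.2 CPM in No MM and 45.1, 68.3, 62.1, 46.6 and 53.6 CPM in MM. Outside No MM 3 and No MM 4, Erap1 kept within 45.1 to 68.3 CPM. Its lower value in that pair was 2.92 times the highest of the other 8 libraries.

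The log2 fold changes were -1.02 for Psmb8 (standard error 0.44, unadjusted p = 0.0401, adjusted p = 0.339 in edgeR), -0.65 for Psmb9 (standard error 0.39, adjusted p = 0.463) and -1.06 for Erap1 (standard error 0.44, unadjusted p = 0.0342, adjusted p = 0.332). Over the 8 libraries without that pair they were -0.25, -0.03 and 0.01. The 95% confidence intervals were then -1.04 to 0.55, -0.84 to 0.77 and -0.36 to 0.39. Of the 76-base stretches, 9.90% in Psmb8 and 10.3% in Erap1 also occurred in Gm20496 and Cast, which overlap them on the opposite strand.

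**Figure D1:**
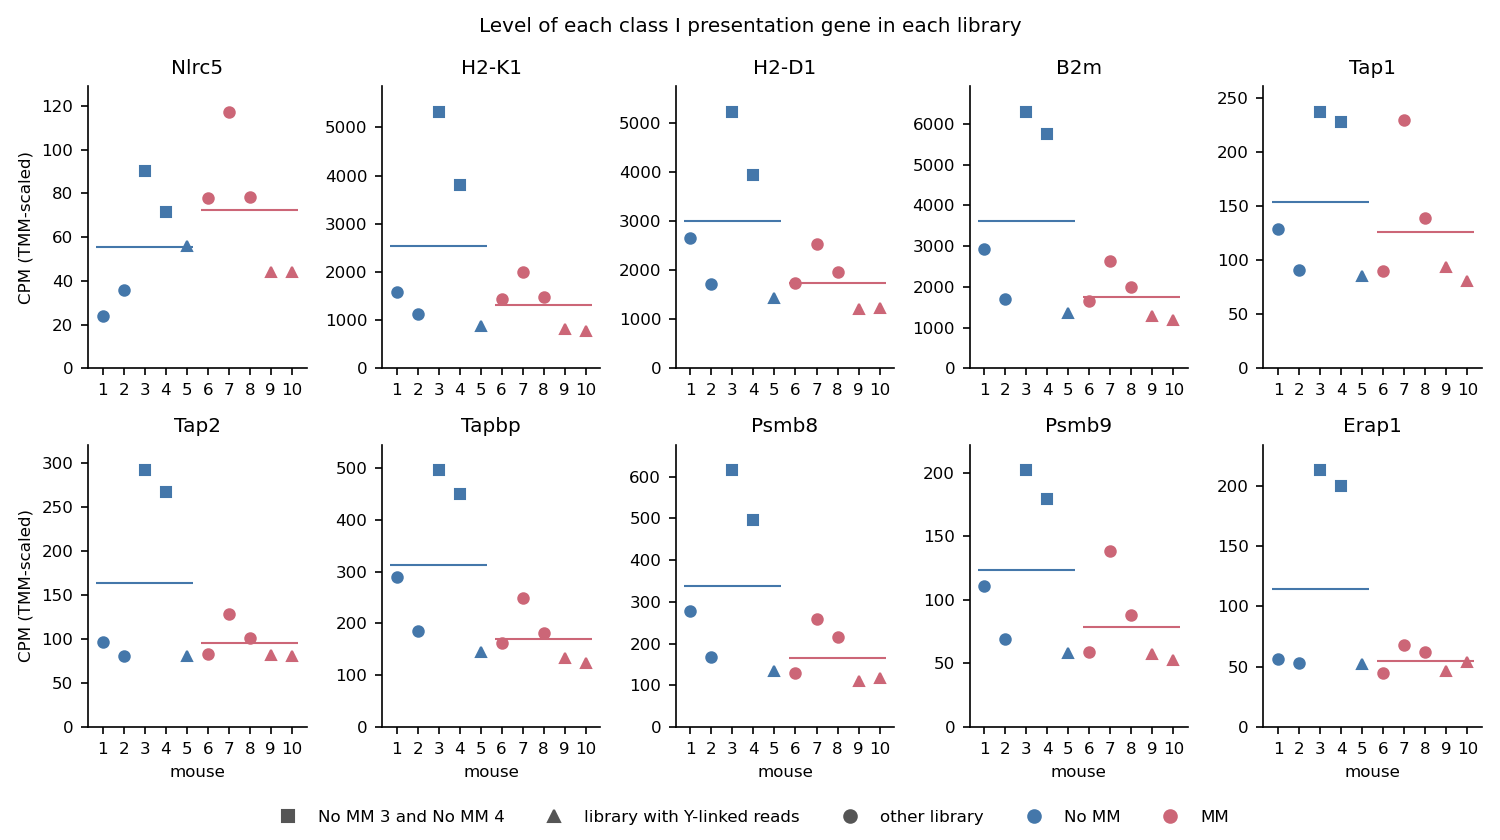
CPM (TMM-scaled) of each gene in each library, with mouse number on the x axis, No MM in blue, MM in red and a line at each group mean. Squares are No MM 3 and No MM 4, which are the top pair in 8 of the 10 panels, and triangles are the 3 libraries with Y-linked reads.

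Of the 10 genes, 9 had a lower and 1 a higher level in MM, and none passed an adjusted p of 0.05 in edgeR, as 0.0% of the 16186 genes tested did. At an unadjusted p under 0.05, 3 of the 10 were lower (Tapbp, Psmb8 and Erap1), against 10.3% of all genes, and none was higher, against 3.81%. DESeq2 called none of the 10 at an adjusted p of 0.05, and 1.17% of the genes it tested. No MM and MM overlapped in all 10 genes, whereas 1.41% of all genes had groups that did not overlap. The median log2 fold change of the 10 genes was -0.83, against -0.03 over all tested genes. Over the 8 libraries other than No MM 3 and No MM 4 the median was -0.01, against -0.02, with 5 genes on either side of 0, so the lower median in MM was not seen without those controls. Without either of them alone, and without MM 6, MM 9 or MM 10 alone, 0 of the 10 genes had an unadjusted p under 0.05, and without No MM 5 alone 7 did.

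**Figure D2:**
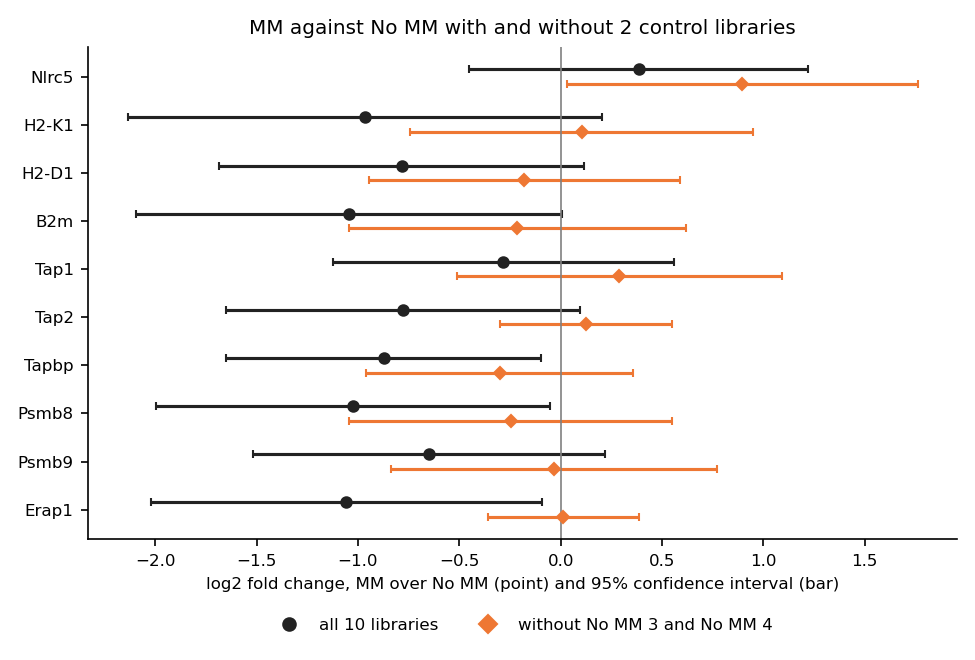
Log2 fold change, MM over No MM, of each gene with its 95% confidence interval from edgeR, over all 10 libraries (black circles) and without No MM 3 and No MM 4 (orange diamonds). Nlrc5 moves from 0.38 to 0.89 while the H2-K1 value moves from -0.97 to 0.10.

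No MM 3 and No MM 4 were both above the other 8 libraries in 8 of the 10 genes, against 24% of all tested genes (3890 of 16186). The exceptions were Nlrc5 and Tap1. In Nlrc5, MM 7 was above both, and MM 6 and MM 8 were above No MM 4. In Tap1, MM 7 was above No MM 4. The mean of No MM 3 and No MM 4 was between 2.10 times (Nlrc5) and 3.83 times (H2-K1) that of No MM 1, 2 and 5. In these libraries 9 of the 10 plasma cell markers, led by Jchain, were above the other 8 libraries, and Mzb1 was not. Over all 10 libraries, all 10 plasma cell markers were lower in MM at an unadjusted edgeR p under 0.05, against 10.3% of all genes. Without No MM 3 and No MM 4 their sums overlapped, at 768 to 1479 CPM in No MM and 926 to 1539 CPM in MM. None of the marker genes was at 0 in every library. Markers of most other immune cells were lower in No MM 3 and No MM 4 than in No MM 1, 2 and 5. Neutrophil markers summed to 7236 to 8282 CPM there, 25319 to 33267 CPM in No MM 1, 2 and 5, and 10271 to 31236 CPM in MM. Leukocyte markers summed to 1676 to 2093, 2443 to 3043 and 1719 to 4035 CPM in the same order, and monocyte and macrophage markers to 1261 to 1655, 1701 to 3475 and 1589 to 3764 CPM. Of the 6 leukocyte markers Cd52 went the other way, at 1192 CPM in No MM 3 and 751 CPM in No MM 4, and 147 to 520 CPM in the other 8 libraries. T and NK cell markers summed to 55.8 to 77.1, 101 to 170.0 and 103 to 191 CPM, and B cell markers to 191 to 233, 310.4 to 449.6 and 251 to 574 CPM. Cd79b made up most of the B cell sum in No MM 3 and No MM 4, and the other 9 B cell markers summed to 20.0 to 25.6, 235 to 335 and 173 to 451 CPM. Dendritic cell markers summed to 219.7 to 227, 141 to 186 and 139 to 255 CPM, but most of the sum in No MM 3 and No MM 4 was Bst2, and the other 9 summed to 47.4 to 68.8, 62.9 to 105 and 94.6 to 182 CPM. Bone and red cell markers were lower in the pair as well, with osteoblast sums of 2914 to 4143, 26013 to 44477 and 14421 to 50684 CPM and erythroid sums of 950.0 to 3234, 10941 to 61350.2 and 7786 to 27132 CPM. The part of these cell types in the class I levels was not tested.

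**Figure D3:**
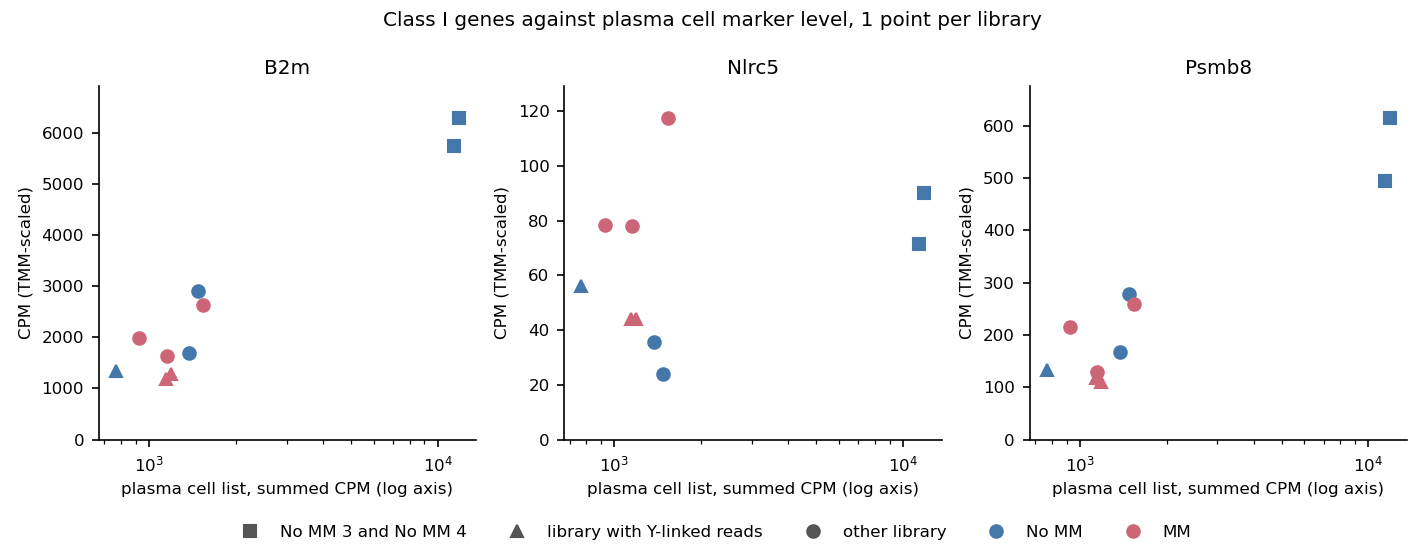
CPM of B2m, Nlrc5 and Psmb8 (y axes) against the summed CPM of 10 plasma cell markers (x axis, log scale), 1 point per library, No MM in blue and MM in red. The squares, No MM 3 and No MM 4, lie at 11390.1 and 11861 CPM on the x axis with B2m at 5759 and 6298 CPM, while Nlrc5 is higher in MM 7 (circle) than in either.

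Among the MM mice, MM 6, MM 7 and MM 8 were all above MM 9 and MM 10 in 8 of the 10 genes, against 13.3% of all tested genes. The exceptions were Tap1 and Erap1, where MM 6 lay within or below the MM 9 and MM 10 values. The ratio of the mean of MM 6 to 8 to that of MM 9 and 10 ranged from 1.17 for Erap1 and 1.28 for Tap2 to 2.07 for Nlrc5 and 2.09 for H2-K1. MM 9 and MM 10 are the MM libraries with Y-linked reads. No MM 5, the No MM library with such reads, had the lowest level of the No MM group in H2-K1, H2-D1, B2m, Tap1, Tapbp, Psmb8, Psmb9 and Erap1. It was not the lowest in Tap2, by 80.9 to 80.5 CPM in No MM 2, nor in Nlrc5, where it exceeded No MM 1 and No MM 2. For Erap1 the gap was small, at 52.2 CPM against 53.4 CPM in No MM 2. The share of all genes that were lowest in No MM 5 was not counted.

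Within the 7 libraries without Y-linked reads, the log2 fold change was -0.84 for H2-K1, -0.99 for B2m, -0.95 for Psmb8 and -1.15 for Erap1, and 0.73 for Nlrc5. All 10 signs were the same as over 10 libraries, and no gene had an unadjusted edgeR p under 0.05. No MM 3 and No MM 4 are among these libraries without Y-linked reads. The 3 libraries with such reads hold 1 No MM mouse, which gives no spread for that group. With Y-linked reads as a term in the fit, the log2 fold change was -0.66 for H2-K1, -0.77 for B2m and 0.41 for Nlrc5. Again none had an unadjusted edgeR p under 0.05. With that term and without No MM 3 and No MM 4, the values were 0.10 for H2-K1, -0.16 for B2m and 0.83 for Nlrc5. The signs of H2-K1, Tap1, Tap2, Psmb9 and Erap1 then differed from those over 10 libraries. The part of the Y-linked reads in the class I levels was not tested further.

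Ratios within a library do not depend on its scaling, and 8 were compared per kilobase by an exact permutation test over all ways to assign the mice, two-sided, with Benjamini-Hochberg adjustment over the 8. None passed an adjusted p of 0.05 (0.529 to 1.0 by the exact permutation test). Psmb8 over Psmb5, the immunoproteasome subunit over the standard one it replaces, was 3.03 in No MM 3 and 3.34 in No MM 4, 0.831 to 0.985 in No MM 1, 2 and 5, and 0.842 to 1.66 in MM. Psmb9 over Psmb6 gave 0.312 and 0.308 in No MM 3 and No MM 4, 0.150 to 0.159 in the other No MM libraries and 0.163 to 0.355 in MM, with the top value in MM 7. Psmb10 over Psmb7, the third immunoproteasome pair, did not follow: it was 0.328 and 0.381 in No MM 3 and No MM 4, 0.384 to 0.416 in the other No MM libraries and 0.334 to 0.762 in MM. No MM 3 and No MM 4 thus held high Psmb8 and Psmb9 ratios but no high Psmb10 ratio, and MM 7 and MM 8 had the highest Psmb10 ratios.

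The heavy chain to light chain ratio varied less. H2-K1 over B2m was 0.248 to 0.388 in No MM and 0.289 to 0.403 in MM (log2 difference 0.13, exact permutation p = 0.349). H2-D1 over B2m was 0.280 to 0.434 in No MM and 0.390 to 0.435 in MM (log2 difference 0.17, exact permutation p = 0.19), with the lowest values in No MM 3 and No MM 4. H2-K1 exceeded H2-D1 per kilobase in No MM 3 (1.14) and No MM 4 (1.09) but in none of the other 8 libraries, where the ratio was 0.666 to 0.928. Tap1 over Tap2 was lowest in No MM 3 (0.718) and No MM 4 (0.752), and highest in MM 7 (1.58). Nlrc5 over Ciita was 6.99 in No MM 3 and 5.85 in No MM 4, against 1.24 to 2.20 in No MM 1, 2 and 5 and 1.23 to 2.30 in MM. In the 8 libraries other than that pair the log2 difference of the Psmb9 ratio was 0.39 (exact permutation p = 0.0357, adjusted p = 0.286 over the 8 ratios). All its MM values (0.163 to 0.355) lay above those of No MM 1, 2 and 5 (0.150 to 0.159). That p is the smallest this test can give in these 8 libraries, so this ratio alone could not pass adjustment. The other ratios had a p of 0.0714 or more by the same exact test. In these 8 libraries the log2 fold change was -0.03 for Psmb9 and -0.53 for Psmb6, so the higher ratio came with a lower Psmb6 and no higher Psmb9.

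**Figure D4:**
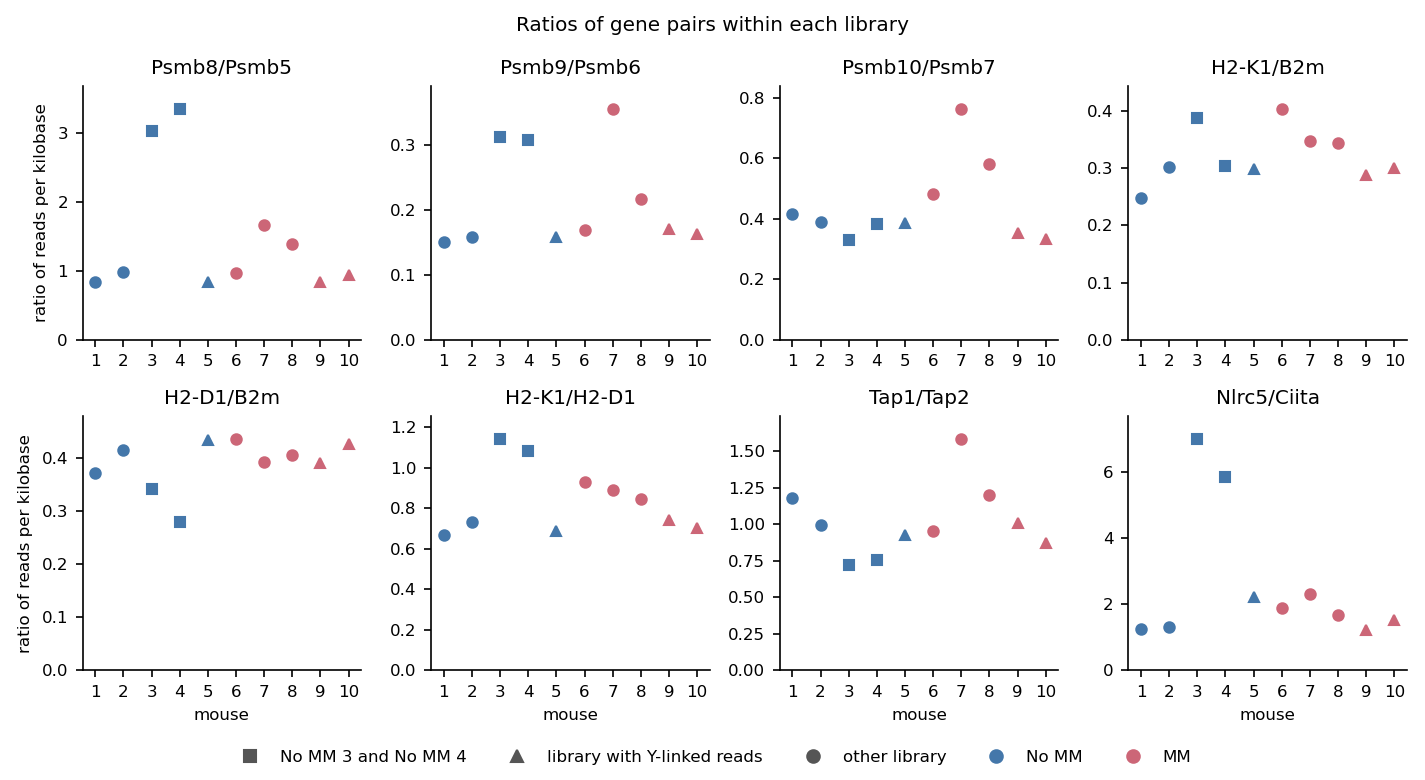
Ratio of reads per kilobase of 8 gene pairs within each library, with mouse number on the x axis, No MM in blue and MM in red. Squares are No MM 3 and No MM 4, where Psmb8/Psmb5 reaches 3.34 and Nlrc5/Ciita reaches 6.99, and triangles are the libraries with Y-linked reads.

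The level of Nlrc5 was set against those of the other 9 genes from mouse to mouse. Because No MM 3 and No MM 4 form a cluster of their own, correlations of log2 CPM were read within the other 8 libraries. There Pearson's r of Nlrc5 with the other 9 genes ranged from -0.05 (Tapbp) to 0.54 (Tap2). For Tap2, Spearman's rho was 0.55, the exact permutation p of r was 0.177 and the adjusted p over 19 relations was 0.845, and r was 0.66 without the 2 libraries farthest from the median Nlrc5 level. For B2m, r was 0.06 and rho 0.07 (exact permutation p = 0.878 and 0.882, adjusted to 0.908 and 0.931), and r was 0.51 without the farthest 2. Ptprc (CD45), which marks leukocytes, had r from -0.53 with Tapbp to 0.55 with Nlrc5 in the same 8 libraries. None of the 19 relations passed adjustment (adjusted exact permutation p of 0.793 or more). Only 5 of these 8 libraries were without Y-linked reads, too few for a correlation within them.

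Over all 10 libraries and all tested genes, the 5 genes most like Nlrc5 by Pearson's r of log2 CPM were H2-T10 (0.942), Oas2 (0.934), Gm5970 (0.933), Zscan20 (0.923) and Gbp4 (0.921). H2-T10 is a nonclassical class I gene, and Oas2 and Gbp4 are interferon-inducible. The 5 most like the mean of the 10 genes were H2-Q7 (0.982) and H2-M3 (0.971), both nonclassical class I genes, Snx6 (0.968), Slc16a13 (0.963) and Zbp1 (0.960). These values describe 10 libraries. No MM 3 and No MM 4 set the upper end for the mean of the 10 genes, and MM 7 for Nlrc5.

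Besides the 10 genes, 66 genes of the class I pathway were in the table, in 5 lists by role, and 59 were tested. None passed an adjusted p of 0.05 in edgeR. At an unadjusted p under 0.05, 14 were lower (23.7%, against 10.3% of all genes) and 1 was higher (1.69%, against 3.81%) in MM. In the 8 libraries other than No MM 3 and No MM 4, 5 were lower (8.47%, against 3.37%) and 3 higher (5.08%, against 2.51%). In 19 of the 59 (32.2%, against 24% of all genes), No MM 3 and No MM 4 were both above the other libraries. The loading and chaperone list held 7 of the 14 lower genes, out of 10 tested, and had a median log2 fold change of -0.71. They were Tapbpl (-1.31), a relative of tapasin, the chaperone Hspa5 (-1.03), the translocon subunits Sec61a1 (-1.02), Sec61b (-0.75) and Sec61g (-0.67), and Ganab (-0.77) and Uggt1 (-0.50) of glycoprotein quality control. Of these, Sec61g alone had an unadjusted p under 0.05 without No MM 3 and No MM 4, with a log2 fold change of -0.69 (adjusted p = 0.643 in edgeR). Most of these genes serve all secreted proteins and not class I alone.

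Of the 9 tested genes of the proteasome list, 3 were lower with an unadjusted p under 0.05 (33.3%, against 10.3% of all genes). None was higher, against 3.81% of all genes, and none passed an adjusted p of 0.05 in edgeR. The 3 lower genes were the standard catalytic subunits Psmb5 (log2 fold change -0.54), Psmb6 (-0.61) and Psmb7 (-0.47). In the 8 libraries without No MM 3 and No MM 4 they were -0.69, -0.53 and -0.56, again with an unadjusted p under 0.05 for all 3. That was 33.3% of the list, against 3.37% of all genes, with an adjusted p of 0.643 for each in edgeR. Psmb10 averaged 68.3 ± 26.6 CPM (SD, n = 5) over the No MM mice and 65.4 ± 26.1 CPM (SD, n = 5) over the MM mice. The standard subunits had their highest value in No MM 1, with Psmb5 at 152, Psmb6 at 247 and Psmb7 at 253 CPM. Among 6 tested peptidases, Thop1 (-0.57) and Lap3 (-0.52) were lower with an unadjusted p under 0.05 (33.3%, against 10.3% of all genes). Thop1 was so without No MM 3 and No MM 4 as well (-0.65), as 16.7% of the list against 3.37% of all genes.

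Nonclassical class I genes went both ways, with 18 of 25 tested, a median log2 fold change of -0.22, and 2 lower at an unadjusted p under 0.05. Those 2 were 11.1% of the tested genes of the list, near the 10.3% of all genes. H2-Q2 had 31.6 and 46.9 CPM in No MM 3 and No MM 4 and 0.172 to 1.38 CPM in the other 8 libraries (log2 fold change -4.46 over all libraries, 0.63 without the pair). Raet1e, a ligand of the NKG2D receptor, had 6.66 and 6.86 CPM in No MM 3 and No MM 4 and 0.492 to 1.22 CPM elsewhere (log2 fold change -1.85, and -0.13 without the pair). H2-T10 had a log2 fold change of 0.07 over all libraries and 0.77 without the pair (unadjusted p = 0.0324, adjusted p = 0.643 in edgeR). DESeq2 called H2-Q2 and Ciita, 2 of the genes in the lists, with an adjusted p of 0.0207 and 0.0341, and 0 of them without No MM 3 and No MM 4.

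The 16 regulators had a median log2 fold change of 0.16, and 1 (6.25%, against 3.81% of all genes) was higher with an unadjusted p under 0.05. That was Ciita, with 14.6, 20.6, 9.76, 9.25 and 19.2 CPM in No MM 1 to 5 and 31.5, 38.6, 35.5, 27.2 and 22.2 CPM in MM 6 to 10. The log2 fold change of Ciita was 1.08 with a standard error of 0.27 (unadjusted p = 0.00193, adjusted p = 0.315 in edgeR). Without No MM 3 and No MM 4 it was 0.75 (unadjusted p = 0.00622, adjusted p = 0.643 in edgeR). The No MM and MM values of Ciita did not overlap, as in 1.41% of all genes. Ciita was at its lowest in the pair of libraries where the classical class I genes were at their highest. Rfx5, a subunit of the complex that NLRC5 and CIITA both use, had 40.2 and 49.5 CPM in No MM 3 and No MM 4 and 15.6 to 31.1 CPM in the other 8. Its log2 fold change was -0.11 over all libraries and 0.51 without the pair (unadjusted p = 0.0165, adjusted p = 0.643 in edgeR). Irf1, an interferon-induced transcription factor singled out after its values were seen, was highest in MM 7, at 176 CPM. It had 97.5 CPM in No MM 3 and 142 CPM in No MM 4, a mean of 119.9 CPM against 87.7 CPM in No MM 1, 2 and 5.

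**Figure D5:**
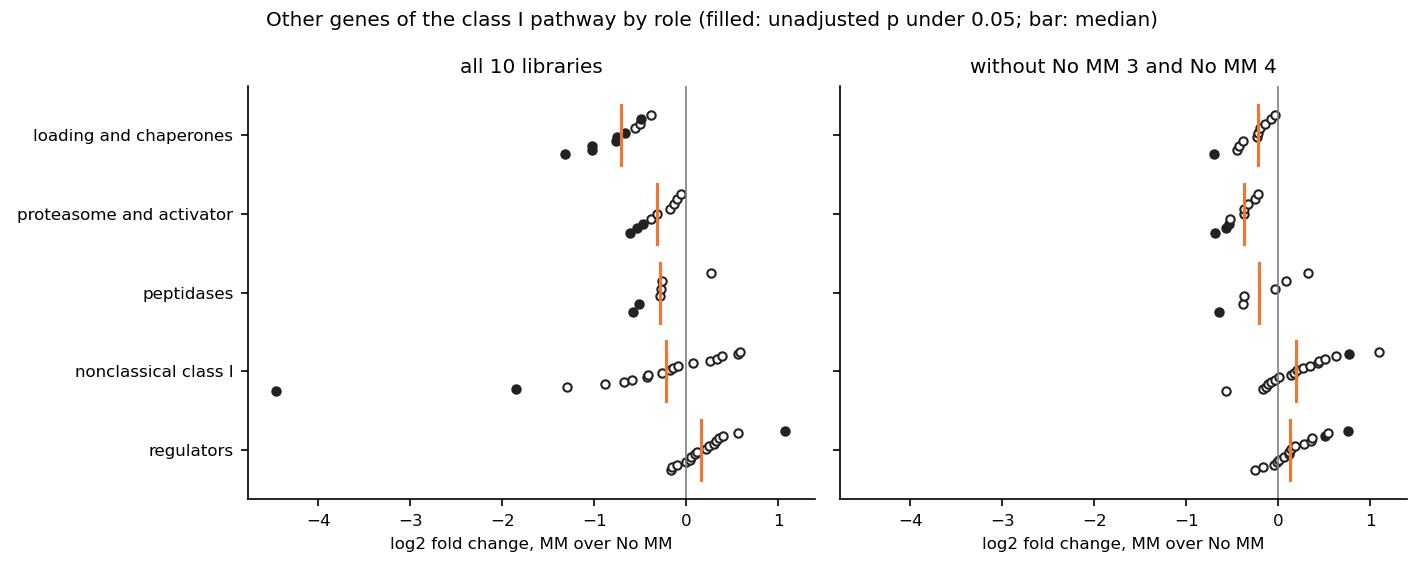
Log2 fold change, MM over No MM, of the 59 other class I pathway genes by role, over all 10 libraries (left) and without No MM 3 and No MM 4 (right). Filled points have an unadjusted edgeR p under 0.05, and the orange bar is the list median, which moves from -0.71 to -0.23 for loading and chaperones.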

How the data were processed

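RNA-seq of mouse osteocytes was analyzed from 10 libraries, 5 No MM and 5 MM, with 1 library per mouse as the labels imply, so that p-values measure the spread between these mice. The libraries were prepared with a stranded total RNA kit and sequenced as 76-bp paired ends. The submitters' processing notes name FastQC 0.11.5 and STAR. The counting program, the annotation and the genome build are not given in the sources used here. The authors deposited read counts per gene, as whole numbers without normalization, for 22548 genes. The authors also deposited a normalized signal (counts over 1 size factor per library) and FPKM values (counts per length and library size). The log2 fold changes and the p-values that the authors deposited come from their own comparison of MM with No MM. Of these columns none was used. No sample column was left unmapped.

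Counts were analyzed in R 4.3.3 with edgeR 4.0.16. Genes were filtered with filterByExpr, which left 16186, scaled by TMM and tested for MM over No MM by glmQLFit and glmQLFTest with no covariate. Benjamini-Hochberg adjustment covered all tested genes, and an adjusted p under 0.05 counted as a call. Log2 CPM used a prior count of 2. Levels per length are TMM-scaled CPM over the gene length in the table. Ratios and correlations of log2 CPM were tested by exact permutation, or with 100000 resamples for n = 10. Between 31099174 and 39466332 reads were counted per library, so that 3 counts corresponded to 0.0709 to 0.114 CPM, and such limits cover counting error only. The fits were tested on simulated counts.

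Positions were taken from GENCODE M21 (GRCm38). Of 22284 gene identifiers found there, 68.4% had the same coordinates as the table. Promoters came from RefSeq. The 76-base stretches were compared between the M21 transcripts of different genes. Alternatives were DESeq2 1.42.0, other scalings (RLE, upper quartile), no filter, at least 10 counts in every library, immunoglobulin genes left out, other thresholds (adjusted p under 0.1, unadjusted p under 0.05), No MM 3 and No MM 4 left out, and each mouse left out. After seeing the data, Y-linked reads were added as a term, the 7 libraries with under 100 such reads were analyzed alone, and DESeq2 was run without No MM 3 and No MM 4.

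The 10 genes, the pathway and marker lists and these choices were made with earlier results of these data known. Named were the 10 genes with every value, pathway genes with an unadjusted p under 0.05, the ratio partners, Ptprc, the 5 genes most like Nlrc5 or the mean of the 10 genes, and the leading marker genes. H2-T10, Rfx5, Irf1, Xist, the Y-linked genes, Dmp1, Mzb1 and Cd52 were singled out after their values were seen. One gene of the lists is not reported here by name.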

Additional observations from a re-analysis of the deposited data

Results flagged for a closer look

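In the MM group, the ratio of Psmb9 to Psmb6 per kilobase was 0.355 in MM 7, and 0.163 to 0.216 in the other 4 MM libraries. Its gap to the nearest of them was 0.723 of the group's whole range, above the critical value of 0.71 for 5 samples in Dixon's test. Of 36 sets of 5 values tested in this way, 1.8 are picked out by chance. No MM 3 and No MM 4 had ratios of 0.312 and 0.308, close to that of MM 7. The cause was not tested.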

How the results depend on the processing

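No gene of the set passed an adjusted p of 0.05 under any alternative run, edgeR or DESeq2, and the direction of Nlrc5, H2-D1, B2m, Tapbp and Psmb8 was the same in all 21. DESeq2 called 207 genes in all and 2 of the pathway lists, and 4 genes in all, 0 of them in the pathway lists, without No MM 3 and No MM 4. At an unadjusted p under 0.05 the count of the 10 genes past the threshold was 3, all lower. It was 0 lower and 1 higher without No MM 3 and No MM 4, in edgeR and in DESeq2, and 0 lower with Y-linked reads as a term, in the libraries without Y-linked reads, and with that term without No MM 3 and No MM 4. Leaving out each mouse gave 0 to 7 lower genes (0 without No MM 3, No MM 4, MM 6, MM 9 or MM 10; 5 without No MM 2 or MM 7; 7 without No MM 5).

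Of the pathway lists, 14 genes were lower and 1 higher. Without No MM 3 and No MM 4 these were 5 and 3 in edgeR, 4 and 4 in DESeq2, and 3 and 3 with the Y-linked term. The lower genes were 4 with the Y-linked term over 10 libraries and 8 in the libraries without Y-linked reads. Leaving out each mouse gave 6 to 18 lower and 1 to 2 higher genes.

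Signs turned without No MM 3 and No MM 4 in edgeR, DESeq2 and edgeR with the Y-linked term, to 0.10, 0.13 and 0.10 for H2-K1, 0.29, 0.31 and 0.29 for Tap1, 0.12, 0.14 and 0.13 for Tap2, and 0.013, 0.031 and 0.021 for Erap1. That of Psmb9 turned to 0.0012 with the term. The log2 ratios turned to 0.35 for Psmb8/Psmb5, 0.39 for Psmb9/Psmb6, 0.23 for H2-K1/H2-D1 and 0.13 for Nlrc5/Ciita without No MM 3 and No MM 4. In the libraries without Y-linked reads Psmb9/Psmb6 was 0.10 and H2-K1/H2-D1 0.0091. Leaving out each mouse, Psmb9/Psmb6 ranged from -0.20 to 0.15, turned without No MM 3, No MM 4, MM 6, MM 9 or MM 10, and H2-K1/H2-D1 from -0.12 to 0.072, turned without No MM 3, No MM 4 or MM 10. The cause was not tested. The other scalings and filters moved the median of all genes by under 0.1 on the log2 scale. No paired analysis was possible because the mouse numbers of No MM and MM have none in common. Counting error was small beside the spread between mice, since each of the 10 genes had 627 reads or more in every library.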
